A study of Saccharomyces cerevisiae with 8 samples.

Results

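Of the 6 genes described here, HSP12, HSP26, HSP42, HSP30 and HSP104 code for stress proteins of budding yeast and TMA10 codes for a small ribosome-associated protein. They are 6 of the 6696 gene regions counted in the series, and all 6 passed the filter on low counts that kept 5855 genes. They were chosen by name from an earlier reading of these data, in which rises in wild-type cells after tunicamycin stood out. Values that involve wild-type libraries are therefore given for these genes as a description, without a test, and the change within grr1-deficient cells is the comparison that was tested. Which values led to the choice is not stated. Values of grr1-deficient cells may have entered it, so the p-values of these genes may be too favourable.

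The samples were W303 strains in 4 groups with 2 biological replicates each: grr1-deficient cells at 4 h, grr1-deficient cells at 0 h, wild-type (WT) cells at 4 h and WT cells at 0 h of tunicamycin. All were grown in 2% glucose synthetic complete (SC) medium at 30 °C, and at an OD600 of 0.2 the 4 h groups were given tunicamycin at 1 µg/ml, which blocks N-linked glycosylation and so causes misfolding in the endoplasmic reticulum (ER). Grr1 is the F-box subunit of an SCF ubiquitin ligase and is also known for its part in glucose sensing. The labels name no allele beyond grr1-deficient and do not say whether the replicates are separate clones. No culture kept for 4 h without the drug was used here, and the effect of the drug and that of the hours of growth cannot be told apart. RNA was total RNA from cell lysates, so fewer cells with a transcript and less of it per cell cannot be told apart either.

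A pair of transcription programmes is known to act on such genes in yeast. Msn2 and Msn4 bind the stress response element and drive the general stress response, which protein kinase A holds down in glucose-rich medium. Hsf1 binds repeated units of the heat shock element and drives cytosolic chaperones. Hsp26 and Hsp42 are small heat shock proteins that keep unfolded proteins in sequestered form, and Hsp104 is an ATPase that pulls proteins out of aggregates together with Hsp70 and Hsp40 partners. Hsp12 is a small protein that associates with membranes under stress, Hsp30 is a plasma membrane protein that restrains the proton pump Pma1, and Tma10 is a paralog of Stf2.

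The upstream sequences of 5 of the genes are shown because they hold motifs of these programmes. HSP30, with no match in the 600 bases before its start codon, is left out. Whether the motifs bear on how the transcripts moved was not tested. Each line gives, of the 600 bases before the start codon and upstream of the counted 5′ UTR, the 120 bases with the most motif matches, 5′ to 3′ on the strand of the gene, from the R64 RefSeq reference of strain S288C, so the W303 sequence may differ. Capitals mark the stress response element (AGGGG, or CCCCT on the other strand) and the paired heat shock element unit (GAANNTTC or TTCNNGAA). The stretches lie at chrII:381676-381795 for HSP26, chrIV:806325-806444 for HSP42, chrXII:88321-88440 for HSP104 and chrVI:106821-106940 for HSP12, all on the plus strand, and at chrXII:783645-783764 on the minus strand for TMA10. The HSP12 stretch also overlaps the reading frame YFL015C.
HSP26: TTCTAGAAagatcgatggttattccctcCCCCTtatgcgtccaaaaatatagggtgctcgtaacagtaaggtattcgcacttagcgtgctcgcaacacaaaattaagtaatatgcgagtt
HSP42: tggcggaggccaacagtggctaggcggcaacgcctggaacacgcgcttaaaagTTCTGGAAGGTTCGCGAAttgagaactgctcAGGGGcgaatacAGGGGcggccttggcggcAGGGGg
HSP104: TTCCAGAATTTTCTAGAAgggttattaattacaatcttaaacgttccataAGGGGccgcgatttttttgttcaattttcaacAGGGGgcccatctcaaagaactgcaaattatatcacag
HSP12: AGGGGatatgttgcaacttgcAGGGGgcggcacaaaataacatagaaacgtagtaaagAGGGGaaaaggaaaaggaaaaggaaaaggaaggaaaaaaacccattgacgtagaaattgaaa
TMA10: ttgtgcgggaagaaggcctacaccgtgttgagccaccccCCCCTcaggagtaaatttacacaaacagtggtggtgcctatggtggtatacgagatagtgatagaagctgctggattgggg

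Because the stretches were placed by their matches, they end at different distances from the start codon, between 177 bases before it in HSP42 and 316 bases in HSP12, and do not show every match. Over the 600 bases before the start codon, 5 of the 6 genes held a stress response element, against 39.7% of 5999 promoters of that length. HSP12 held 5 such matches, HSP26, HSP42 and HSP104 held 3 each, TMA10 held 2, and HSP30 held none. A heat shock element match was found in 3 of the 6 genes, HSP26, HSP42 and HSP104, against 41.2% of promoters. In the shorter window of 250 bases before to 50 bases after the start codon, the counts were 3 of 6 genes for the stress response element, against 21.6% of 6001 promoters, and 1 of 6 for the heat shock element, against 22.6%. Runs of 4 alternating heat shock element units occurred in HSP42 and HSP104 and in 17 of 5999 promoters in all (0.283%), a search chosen after the sequences were seen. The unfolded protein response element, searched as CAGCGTG on both strands, matched none of the 6 genes in the 600 bases, against 3.02% of promoters, and none in the shorter window, against 1.17%. These matches describe letters in a window and not sites of binding.

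**Figure D1:**
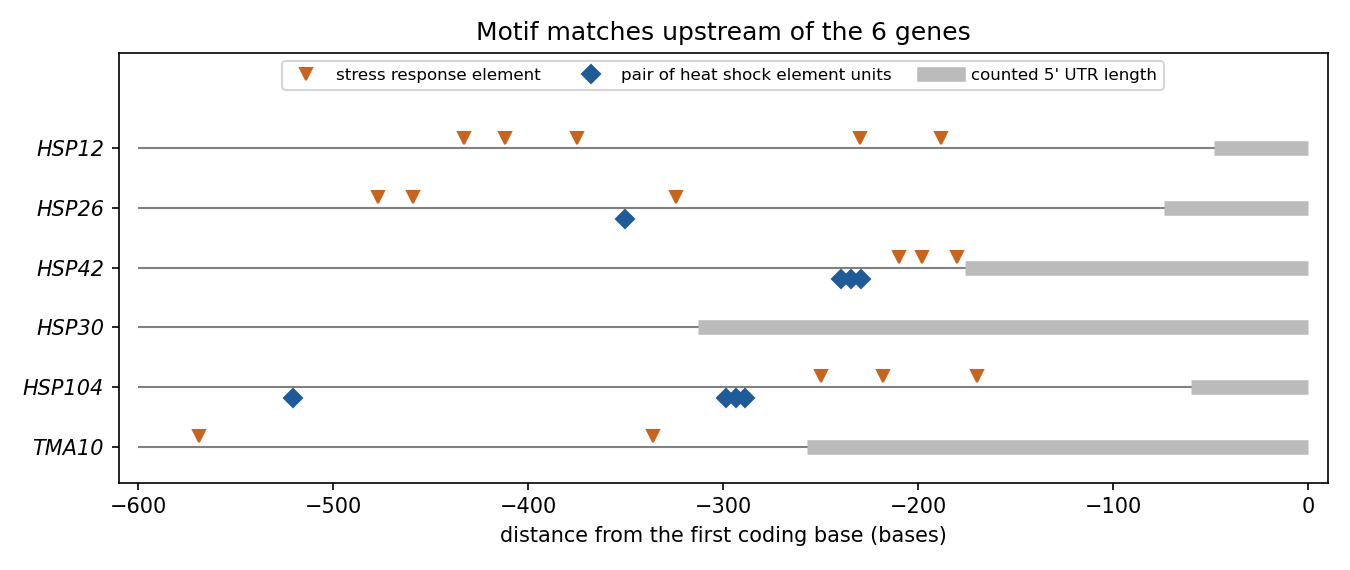
Motif matches in the 600 bases before the start codon of each gene, by distance from the first coding base in bases. Triangles stand for stress response elements, diamonds for pairs of heat shock element units and grey bars for the counted 5′ UTR. HSP12 has 5 triangles and no diamond, HSP42 and HSP104 have clustered diamonds, and HSP30 has no symbol.

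Depth ranged between 4885844 and 12380049 reads in genes per library. GRR1 held 6 and 12 reads in grr1-deficient cells at 4 h and 2 and 3 reads at 0 h, against 1794 and 1829 reads in WT at 4 h and 1179 and 1384 reads at 0 h. The grr1-deficient libraries of replicate 2 stood apart: the 8 mitochondrially encoded genes on the marker list summed to 0.243 CPM (reads scaled to library size) at 4 h and 8.80 CPM at 0 h in replicate 2, against 37928 and 27905 CPM in replicate 1, where no TMM factor was applied. In WT the same sum lay between 14046 and 14524 CPM at 4 h and between 5008 and 5448 CPM at 0 h. The summed MATa markers lay between 301 and 1104 CPM in every library, above the MATalpha markers at 8.09 to 57.7 CPM. Single genes did not all follow the sums. At 4 h STE3, a MATalpha gene, had 29.0 to 36.9 CPM. The MATa genes MFA1 (9.81 to 29.8 CPM), MFA2 (4.78 to 7.10 CPM) and ASG7 (2.75 to 3.72 CPM) lay below it in each library. STE2 and STE6 lay above it, and BAR1 did too except in grr1-deficient replicate 1 (20.7 against 36.9 CPM). Levels below are TMM-scaled CPM of exon reads, given for replicates 1 and 2 in that order, and group values are mean ± SD of 2 libraries.

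The small heat shock protein genes HSP26 and HSP42 had their highest levels in WT at 4 h, and only HSP42 passed the test of change within grr1-deficient cells. HSP26 (YBR072W, R64 chromosome II, coding frame 382030 to 382674) had 64.9 and 63.7 CPM in grr1-deficient cells at 4 h and 5.17 and 50.2 CPM at 0 h. In WT it had 465 and 554 CPM at 4 h and 6.22 and 5.16 CPM at 0 h. At 0 h, the first grr1-deficient library lay at the WT level and the second above it, a gap of 9.72-fold between replicates that 0.632% of all tested genes exceeded on the log2 scale with 0.5 CPM added. The level of HSP26 in grr1-deficient cells at 4 h lay above both grr1-deficient 0 h libraries and below both WT 4 h libraries. Its log2 change within grr1-deficient cells was 1.25 ± 0.93 (SE) and did not pass (edgeR quasi-likelihood test, Benjamini-Hochberg adjusted p = 0.327), and the interval of 2 SE around it spanned -0.61 to 3.11.

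HSP42 (YDR171W, chromosome IV, 806621 to 807748) had 266 and 222 CPM in grr1-deficient cells at 4 h and 59.5 and 85.5 CPM at 0 h. In WT it had 589 and 556 CPM at 4 h and 20.5 and 22.8 CPM at 0 h. The 4 groups did not overlap, and their order was WT at 4 h, grr1-deficient at 4 h, grr1-deficient at 0 h and WT at 0 h. Within grr1-deficient cells HSP42 rose by 1.75 ± 0.19 on the log2 scale (edgeR, Benjamini-Hochberg adjusted p = 0.000237), in both replicates, by 4.47-fold and 2.6-fold. Fitted on the grr1-deficient libraries alone, the rise was 1.74 ± 0.23 (edgeR adjusted p = 0.00395).

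HSP104, the disaggregase gene (YLL026W, chromosome XII, 88623 to 91349), had 1882 and 1604 CPM in grr1-deficient cells at 4 h and 644 and 750.2 CPM at 0 h. In WT it had 2783 and 3149 CPM at 4 h and 274 and 290 CPM at 0 h. Its groups stood apart in the same order as those of HSP42. The rise within grr1-deficient cells was 1.32 ± 0.19 on the log2 scale (edgeR, Benjamini-Hochberg adjusted p = 0.00083), or 2.92-fold and 2.14-fold in the replicates. Fitted on the grr1-deficient libraries alone, it was 1.31 ± 0.34 (edgeR adjusted p = 0.0276). Over the 8 libraries, log2 CPM of HSP42 and HSP104 had Pearson r = 0.998, the highest of the 15 pairs among the 6 genes, whereas HSP26 and TMA10 had the lowest at 0.597.

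The membrane-associated products are those of HSP12 and HSP30, and both transcripts were higher in replicate 2 than in replicate 1 of grr1-deficient cells at both times. HSP12 (YFL014W, chromosome VI, 107256 to 107585) had 353 and 793 CPM in grr1-deficient cells at 4 h and 120.1 and 915 CPM at 0 h. In WT it had 1723 and 2347 CPM at 4 h and 16.9 and 12.8 CPM at 0 h. All 4 grr1-deficient libraries lay between the WT times, and the grr1-deficient groups overlapped. Replicate 2 was 2.25-fold above replicate 1 at 4 h and 7.62-fold above it at 0 h, gaps that 3.35% and 0.717% of tested genes exceeded. The log2 change within grr1-deficient cells was 0.15 ± 0.95 and did not pass (edgeR, Benjamini-Hochberg adjusted p = 0.915), with an interval of 2 SE of -1.74 to 2.04.

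HSP30 (YCR021C, chromosome III, 156109 to 157107, minus strand) had the lowest mean level per length of the 6 genes in each group. It had 13.6 and 80.3 CPM in grr1-deficient cells at 4 h and 8.74 and 40.5 CPM at 0 h, against 30.2 and 34.7 CPM in WT at 4 h and 3.33 and 4.63 CPM in WT at 0 h. Both WT 0 h libraries lay below all the others, and the remaining 3 groups overlapped. Replicate 2 was 5.89-fold above replicate 1 at 4 h and 4.63-fold above it at 0 h in grr1-deficient cells. Between same-numbered libraries the 4 h library was the higher one, by 1.56-fold and 1.98-fold. The log2 change of 0.98 ± 1.05 did not pass (edgeR, Benjamini-Hochberg adjusted p = 0.485), with an interval of 2 SE of -1.12 to 3.08. In a fit with a term for each replicate number within each genotype it was 0.85 ± 0.17 and passed (edgeR adjusted p = 0.00282). No label ties a replicate number to a shared culture.

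TMA10 moved the other way. The gene (YLR327C, chromosome XII, 783127 to 783387, minus strand) had 520 and 501 CPM in grr1-deficient cells at 4 h and 761 and 1181 CPM at 0 h. In WT it had 511 and 636 CPM at 4 h and 12.3 and 9.36 CPM at 0 h. It was the one gene of the 6 whose highest group was grr1-deficient cells at 0 h, at 970.6 ± 297 CPM, and the 4 h groups of both genotypes overlapped. Within grr1-deficient cells TMA10 fell by 0.93 ± 0.24 on the log2 scale (edgeR, Benjamini-Hochberg adjusted p = 0.0124), to 0.684-fold and 0.424-fold of the 0 h level in the replicates. Fitted on the grr1-deficient libraries alone, the change was -0.94 ± 0.31 and did not pass (edgeR adjusted p = 0.0608).

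**Figure D2:**
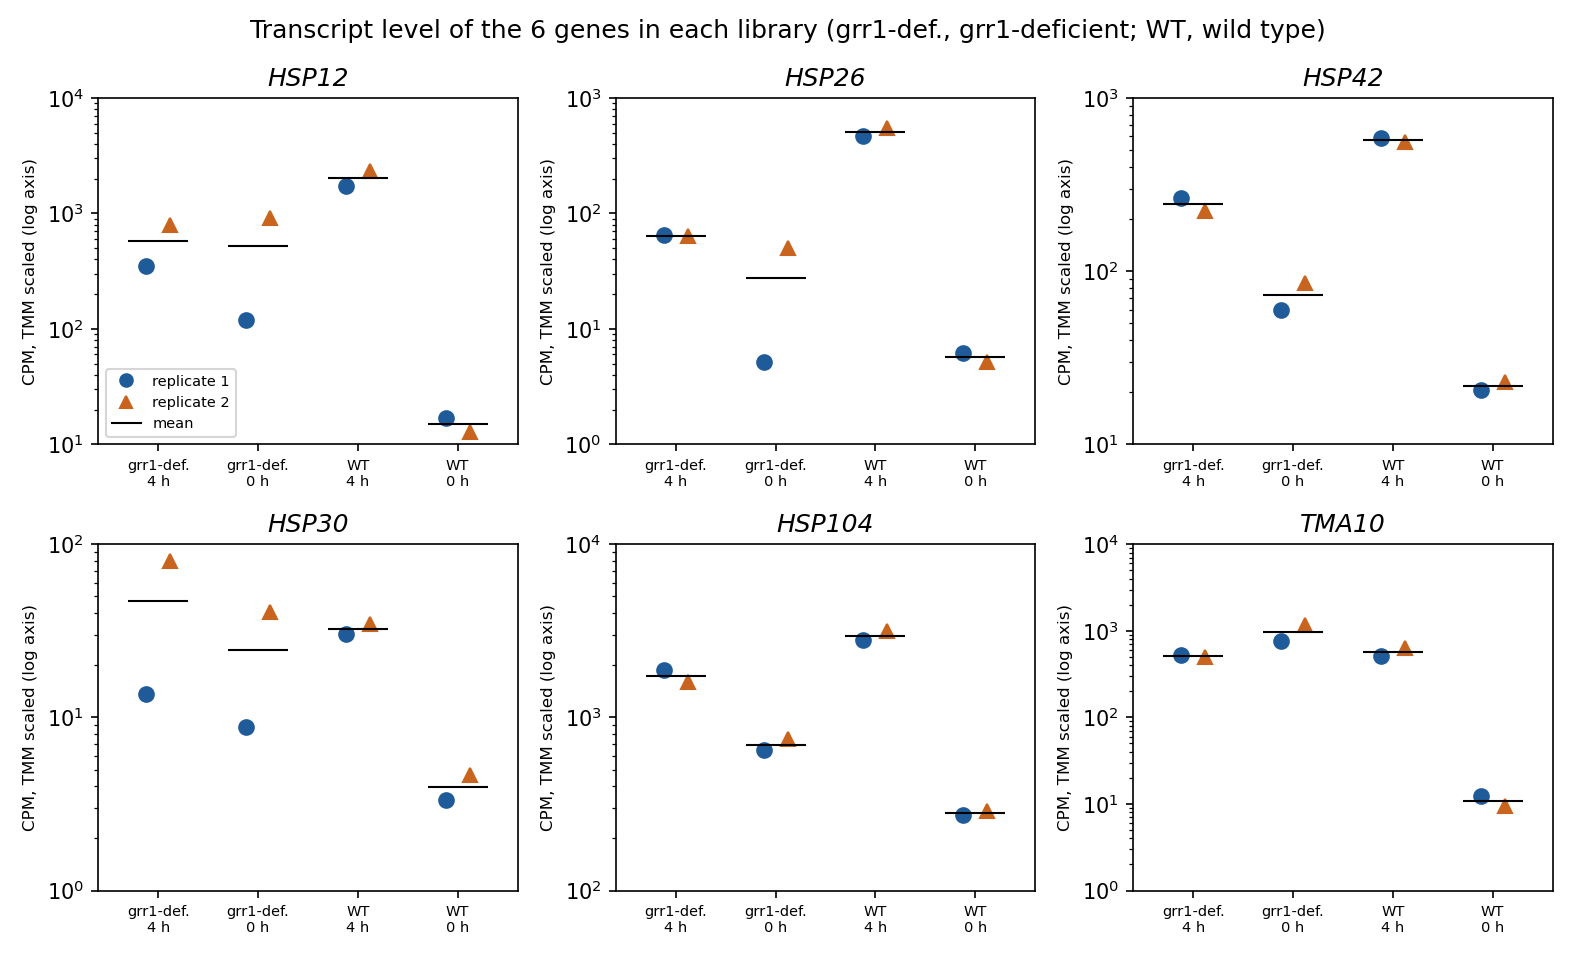
Levels of the 6 genes in each library, in TMM-scaled CPM on a log axis, for grr1-deficient (grr1-def.) and WT cells at 4 h and 0 h. Circles are replicate 1, triangles replicate 2 and bars the mean of 2 libraries. TMA10 in grr1-deficient cells at 0 h sits at 761 and 1181 CPM, above every other group, and HSP12, HSP26 and HSP30 split by replicate in grr1-deficient cells at 0 h.

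Counted together, 2 of the 6 genes were called higher in grr1-deficient cells at 4 h than at 0 h by edgeR at an adjusted p under 0.05, against 21.5% of the 5855 genes tested, and 1 was called lower, against 24.5%. Both 4 h libraries lay above both 0 h libraries for 3 genes, HSP26, HSP42 and HSP104, against 35.8% of genes tested, and below them for TMA10, against 34.1%. The median log2 change of the 6 genes was 1.12, beside 0.04 over all genes tested. The authors' deposited table for grr1-deficient cells gives log2 changes, 4 h over 0 h, of 1.22 for HSP26, 1.75 for HSP42, 1.32 for HSP104, 0.15 for HSP12, 0.94 for HSP30 and -0.93 for TMA10. In the authors' deposited table, the adjusted p was under 0.05 for HSP42, HSP104 and TMA10.

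The calls of HSP12, HSP26 and HSP30 changed with the grr1-deficient libraries used. Fitted without both grr1-deficient libraries of replicate 2, in which the 8 mitochondrial markers were near 0, the log2 changes were 1.53 ± 0.22 for HSP12, 3.62 ± 0.23 for HSP26 and 0.62 ± 0.26 for HSP30, and edgeR called 6 of 6 genes. That fit called 3387 genes in all, against 2696 with all 8 libraries. Fitted without both libraries of replicate 1, they were -0.21 ± 0.21 for HSP12, 0.34 ± 0.16 for HSP26 and 0.98 ± 0.16 for HSP30, with 4 of 6 genes and 3259 of all genes called. HSP30 thus passed in both of these fits (edgeR, Benjamini-Hochberg adjusted p = 0.0483 without replicate 2 and 2.82e-05 without replicate 1). HSP42, HSP104 and TMA10 kept their directions in both fits, at 2.14 and 1.37, 1.52 and 1.09, and -0.57 and -1.24, in that order of left-out replicate. With 1 library per grr1-deficient group, these fits assume that it varies as the WT libraries do. Leaving out only replicate 2 at 0 h gave 2.25 ± 0.55 for HSP12 (edgeR, Benjamini-Hochberg adjusted p = 0.0197) and 3.63 ± 0.22 for HSP26 (adjusted p = 0.000186), both then called. What part the low mitochondrial markers had in the replicate difference was not tested. Reads in all reading frames of the mitochondrial genome were still 0.766% of gene reads in replicate 2 at 4 h and 0.386% at 0 h, against 13.4% and 10.8% in replicate 1.

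**Figure D3:**
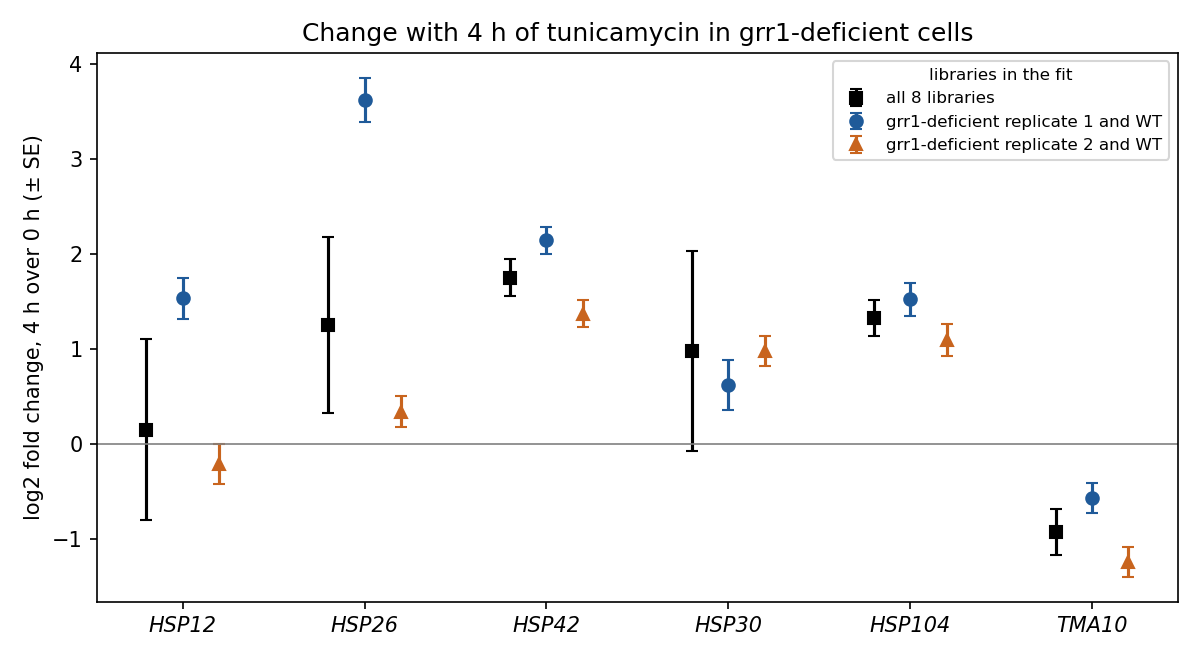
Log2 fold change, 4 h over 0 h, in grr1-deficient cells with its SE for each gene, fitted with all 8 libraries (squares), without grr1-deficient replicate 2 (circles) and without grr1-deficient replicate 1 (triangles). HSP26 lies at 3.62 in one reduced fit and 0.34 in the other, HSP12 crosses 0, and TMA10 lies below 0 in all 3.

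In WT, whose rises stood out in the earlier reading, every gene was far higher at 4 h than at 0 h, and the values are a description. Both 4 h libraries lay above both 0 h libraries for 6 of 6 genes, against 45.8% of genes tested. The choice of genes may have fixed this count, so it is no evidence. The log2 change was 7.10 ± 1.24 for HSP12, 6.48 ± 1.15 for HSP26, 5.72 ± 0.29 for TMA10, 4.73 ± 0.21 for HSP42, 3.40 ± 0.21 for HSP104 and 3.02 ± 1.22 for HSP30. By size these ranked 4, 8, 21, 48, 145 and 205 among 5855 genes. The SE of HSP12, HSP26 and HSP30 rests on a spread estimate shared over all 8 libraries, whereas the WT replicates of these genes differed by at most 1.39-fold. In the authors' deposited table for WT, the SE was 0.17 for HSP12, 0.19 for HSP26 and 0.25 for HSP30.

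At 0 h the mean level of each of the 6 transcripts was higher in grr1-deficient cells than in WT cells. The log2 difference, grr1-deficient over WT, was 6.48 ± 0.30 for TMA10, 5.12 ± 1.13 for HSP12, 2.59 ± 1.25 for HSP30, 2.24 ± 1.05 for HSP26, 1.74 ± 0.19 for HSP42 and 1.31 ± 0.19 for HSP104. TMA10 ranked 13th and HSP12 30th from the top among the 5855 genes. For 5 of the 6 genes both grr1-deficient libraries lay above both WT libraries, against 34.6% of genes tested, and HSP26 overlapped. Low WT levels at 0 h may have entered the choice of the genes, so this count and the ranks are no evidence. Without grr1-deficient replicate 2 at 0 h, the difference was 3.01 for HSP12, 1.13 for HSP30 and -0.14 for HSP26. The median over the 6 genes was 2.42, beside -0.06 over all genes.

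At 4 h the mean levels of HSP12, HSP26, HSP42 and HSP104 were lower in grr1-deficient cells than in WT cells. The log2 difference, grr1-deficient over WT, was -2.99 ± 0.94 for HSP26, -1.83 ± 0.97 for HSP12, -1.23 ± 0.18 for HSP42, -0.77 ± 0.19 for HSP104, -0.17 ± 0.23 for TMA10 and 0.55 ± 1.01 for HSP30. Both grr1-deficient libraries lay below both WT libraries for 4 of the 6 genes, against 36.4% of genes tested, and HSP30 and TMA10 overlapped. HSP26 ranked 11th and HSP12 35th from the lowest difference. High WT levels at 4 h may have entered the choice of the genes, so the count and these ranks are no evidence. Without grr1-deficient replicate 2 at 4 h the difference of HSP30 was -1.25.

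The difference of the 4 h responses, grr1-deficient minus WT, was negative for all 6 genes in the fit with all libraries and in each fit that left out 1 library. It was -6.95 ± 1.48 for HSP12 and -6.65 ± 0.36 for TMA10, the lowest and the second lowest of 5855 genes. HSP26 followed at -5.23 ± 1.40, HSP42 at -2.97 ± 0.27, HSP104 at -2.07 ± 0.27 and HSP30 at -2.04 ± 1.60. Leaving out grr1-deficient replicate 2 at 0 h gave -4.84 for HSP12 and -2.85 for HSP26, against -6.30 for TMA10. For HSP30 it gave -0.58, and leaving out replicate 2 at 4 h gave -3.82. The median difference over the 6 genes was -4.10, beside 0.03 over all genes tested. The WT change enters this difference and may have led to the choice of the genes, so the count and the ranks are no evidence.

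**Figure D4:**
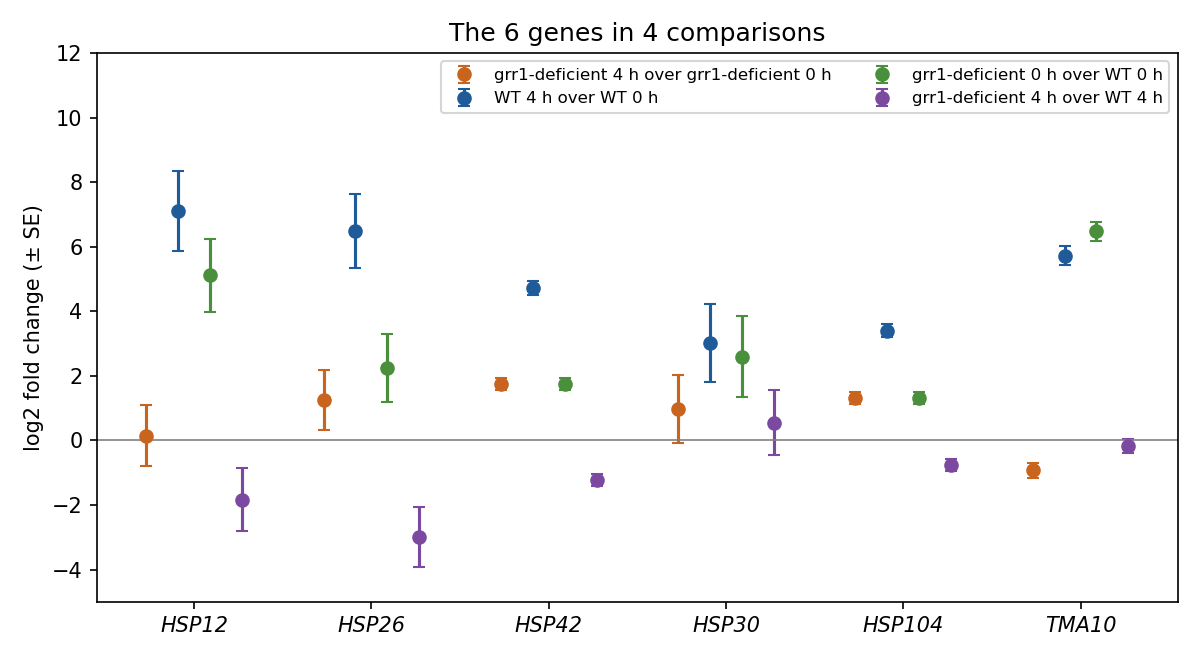
Log2 fold changes with SE of the 6 genes in 4 comparisons: 4 h over 0 h in grr1-deficient cells, 4 h over 0 h in WT, and grr1-deficient over WT at 0 h and at 4 h. The WT change is positive for each gene, at 3.02 to 7.10, and TMA10 pairs a WT change of 5.72 with -0.93 in grr1-deficient cells.

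Per length, the order of the genes differed between groups. The counted length includes the 3′ UTR, which made up 34.8% of it for HSP12, 24.9% for TMA10 and 5.62% for HSP104. That 3′ UTR held at most 4.2% of the exon reads of HSP12, 1.15% for TMA10 and 0.0114% for HSP104. The order between these genes therefore depends on the length used. In the authors' RPKM, grr1-deficient cells at 4 h had 839 ± 365 RPKM of HSP12, 651 ± 96.5 RPKM of TMA10 and 522 ± 122 RPKM of HSP104. HSP12 was highest in replicate 2 at 1098 RPKM, but in replicate 1 it had 581 RPKM, below TMA10 at 719 RPKM and HSP104 at 608 RPKM. TMA10 led in grr1-deficient cells at 0 h with 1299 ± 507 RPKM, before HSP12 with 853 ± 956 RPKM, though the replicates of HSP12 spanned both sides of the first TMA10 library. In WT at 4 h HSP12 led with 4090 ± 824 RPKM, ranks 13 and 6 of 6591 regions in the replicates, and HSP104 followed with 1172 ± 84.2 RPKM. In WT at 0 h HSP104 led with 68.1 ± 4.43 RPKM, before HSP12 with 18.2 ± 3.12 RPKM. HSP30 was lowest in each group, between 1.90 ± 0.479 RPKM in WT at 0 h and 25.7 ± 24.2 RPKM in grr1-deficient cells at 4 h.

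Reads of TMA10 fell on its 5′ UTR more often in a single library. The 5′ UTR held 47.8% of its exon reads in grr1-deficient replicate 2 at 0 h (95% Wilson interval 46.6 to 49.1%), against 32.2 to 38.0% in the other 7 libraries, while the 5′ UTR makes up 37.2% of the counted length. HSP12 also had its highest 5′ UTR share in that library, at 28.1% (26.8 to 29.3%), against 15.1 to 24.8% in the others and 8.28% of its length. HSP104 was highest there as well, at 7.49% (6.72 to 8.35%), against 5.14 to 7.28% in the others. Its interval overlapped those of both WT 4 h libraries and of WT replicate 1 at 0 h. HSP26, HSP42 and HSP30 had their highest shares in WT libraries at 0 h, which held only 48, 184 and 43 of their reads. The intervals there were wide, at 27.0 to 53.7%, 16.4 to 28.2% and 9.74 to 32.6%. HSP26 was next highest in grr1-deficient replicate 2 at 0 h, at 34.6%. Over 3021 genes with at least 100 exon reads in each library the median share lay between 5.38% and 6.29%, and grr1-deficient replicate 2 at 0 h had 6.04%. The intervals cover counting error only. With coding reads in place of exon reads the calls of the 6 genes within grr1-deficient cells were the same. The log2 change of TMA10 was then smaller, at -0.77 ± 0.17 against -0.93 ± 0.24 with exon reads.

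Genes with the most similar pattern were found by Pearson r of log2 CPM over the 8 libraries, which share their groups and replicates. For HSP12 these were IDP3 (r = 0.994), PNC1 (0.994) and SPO1 (0.993), and for HSP26 they were YCL047C (0.994), YMR090W (0.991) and UFD1 (0.991). HSP42 was closest to HXT5 (0.997), YJL070C (0.997) and YDL027C (0.996), and HSP104 to RMR1 (0.999), BNA2 (0.998) and ATG29 (0.997). For HSP30 the nearest were ALD3 (0.980), SRT1 (0.972) and YPR003C (0.964). TMA10 had FMO1 (0.990), GAL3 (0.989) and MPM1 (0.987) nearest, and MPM1 shows the same order, with 60.9 and 79.3 CPM in grr1-deficient cells at 4 h and 83.9 and 123.6 CPM at 0 h, against 82.8 and 80.0 CPM in WT at 4 h and 18.8 and 17.8 CPM in WT at 0 h.

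The general stress list holds further genes that Msn2 and Msn4 are known to drive, such as those of trehalose and glycogen synthesis. Of 29 tested list genes, 9 were called higher and 2 lower in grr1-deficient cells at 4 h than at 0 h, against 21.5% and 24.5% of all genes. In WT 25 were called higher and 1 lower at 4 h than at 0 h, where 32.5% of all genes were higher and 33.1% lower. In grr1-deficient cells against WT at 0 h, 21 were higher and 0 lower, against 22.5% and 27.2% of all genes. At 4 h, 0 were higher and 8 lower in grr1-deficient cells than in WT, against 17.2% and 14.1%. The median log2 changes of the list were 0.69, 3.42, 2.02 and -0.75 in these comparisons. Where a list count is 0 here or below, edgeR gave 0 at an unadjusted p under 0.05 and DESeq2 gave 0 as well, except for general stress genes higher in grr1-deficient cells than in WT at 4 h, where each gave 1. HXK1, a hexokinase gene, had 292 and 409 CPM in grr1-deficient cells at 4 h and 505 and 1163 CPM at 0 h, against 388 and 421 CPM in WT at 4 h and 39.2 and 36.4 CPM at 0 h. Like TMA10 it fell in grr1-deficient cells, by 1.25 ± 0.37 (edgeR, Benjamini-Hochberg adjusted p = 0.0298), and rose in WT, by 3.42 ± 0.40 (adjusted p = 0.000256). DDR48, a stress gene named for DNA damage, rose by 1.69 ± 0.30 in grr1-deficient cells (edgeR adjusted p = 0.00242) and by 3.78 ± 0.33 in WT (adjusted p = 1.71e-05). TKL2, a transketolase gene, had the largest log2 change of the list in grr1-deficient cells, 2.15 ± 1.17, and did not pass (edgeR adjusted p = 0.184).

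The median log2 change of the Hsf1 targets was 0.22 within grr1-deficient cells and 0.63 within WT. Of 21 genes, 5 were higher and 4 lower at 4 h than at 0 h in grr1-deficient cells, 14 higher and 2 lower in WT, 5 higher and 6 lower in grr1-deficient cells than in WT at 0 h, and 0 higher and 11 lower at 4 h. Of all genes, 21.5% were higher and 24.5% lower within grr1-deficient cells, so the share of Hsf1 targets called there was near that of all genes. Within WT 32.5% of all genes were higher and 33.1% lower. Between genotypes the shares of all genes were 22.5% and 27.2% at 0 h, and 17.2% and 14.1% at 4 h. SSA4, an inducible Hsp70, had 62.6 and 87.4 CPM in grr1-deficient cells at 4 h and 23.8 and 37.0 CPM at 0 h, against 159.5 and 194 CPM in WT at 4 h and 27.8 and 24.9 CPM in WT at 0 h. It rose by 1.32 ± 0.24 in grr1-deficient cells (edgeR, Benjamini-Hochberg adjusted p = 0.00286). HSP10, a mitochondrial chaperonin gene, fell by 1.45 ± 0.22 there (edgeR adjusted p = 0.00107). Of the 11 partners of Hsp104 in disaggregation, which share genes with the Hsf1 list, 5 rose and 0 fell in grr1-deficient cells and 8 rose and 0 fell in WT. At 0 h 1 was higher and 5 lower in grr1-deficient cells than in WT, and at 4 h 0 were higher and 5 lower. The shares of all genes given above for the Hsf1 targets stand beside these counts too. BTN2, which acts in aggregate sorting, rose by 1.52 ± 0.16 and SSE2, an Hsp70 nucleotide exchange factor, by 1.34 ± 0.37 in grr1-deficient cells (edgeR adjusted p = 0.00025 and 0.0238), while YDJ1, an Hsp40, had -0.18 ± 0.15 (adjusted p = 0.372).

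Kin of the 6 genes went different ways. STF2, the paralog of TMA10, had 362 and 314 CPM in grr1-deficient cells at 4 h and 82.7 and 195 CPM at 0 h, against 692 and 789 CPM in WT at 4 h and 22.0 and 16.7 CPM at 0 h. It rose by 1.28 ± 0.38 within grr1-deficient cells (edgeR, Benjamini-Hochberg adjusted p = 0.032), where TMA10 fell, and by 5.26 ± 0.45 within WT (adjusted p = 6.81e-05). YRO2 and MRH1, relatives of HSP30, fell in grr1-deficient cells by 0.92 ± 0.24 and by 1.97 ± 0.26 (edgeR adjusted p = 0.0145 and 0.000559) and in WT by 1.44 ± 0.22 and by 2.94 ± 0.27 (adjusted p = 0.000582 and 2.35e-05). HSP78, the mitochondrial relative of HSP104, was 2.03 ± 0.17 higher in grr1-deficient cells than in WT at 0 h (edgeR adjusted p = 0.000122) and had 0.26 ± 0.17 within grr1-deficient cells (adjusted p = 0.229). Of these 4 genes, 1 was higher and 2 lower within grr1-deficient cells, 2 higher and 2 lower within WT, 2 higher and 1 lower between genotypes at 0 h, and 0 higher and 1 lower at 4 h. Of all genes, 21.5% were higher and 24.5% lower within grr1-deficient cells, and 32.5% and 33.1% within WT. Between genotypes the shares were 22.5% and 27.2% at 0 h, and 17.2% and 14.1% at 4 h.

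Among 16 stress regulators, 4 were higher and 1 lower within grr1-deficient cells, 9 higher and 2 lower within WT, 6 higher and 2 lower in grr1-deficient cells than in WT at 0 h, and 3 higher and 5 lower at 4 h. The 4 higher of 16 within grr1-deficient cells are near the 21.5% of all genes, and 32.5% of all genes were higher within WT. Lower were 24.5% of all genes within grr1-deficient cells and 33.1% within WT. Between genotypes 22.5% of all genes were higher and 27.2% lower at 0 h, and 17.2% and 14.1% at 4 h. HSF1 had 126 and 114 CPM in grr1-deficient cells at 4 h and 53.1 and 50.8 CPM at 0 h, against 118 and 121 CPM in WT at 4 h and 41.7 and 54.9 CPM in WT at 0 h. MSN4 was 1.16 ± 0.15 higher in grr1-deficient cells than in WT at 0 h (edgeR, Benjamini-Hochberg adjusted p = 0.000537), whereas MSN2 differed by -0.63 ± 0.25 (adjusted p = 0.0691). YAK1, a kinase opposed by protein kinase A, was also higher there, by 0.93 ± 0.20 (edgeR adjusted p = 0.00496), while MCK1, a kinase of the GSK-3 family, differed by -0.24 ± 0.14 (adjusted p = 0.172).

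Of 10 other genes named TMA, for translation machinery associated, 1 rose and 6 fell within grr1-deficient cells, against 21.5% and 24.5% of all genes. Within WT 2 rose and 8 fell, against 32.5% and 33.1%. In grr1-deficient cells against WT, 1 was higher and 6 lower at 0 h, against 22.5% and 27.2%. At 4 h 2 were higher and 2 lower, against 17.2% and 14.1%. TMA17, a proteasome assembly factor, had 165 and 178 CPM in grr1-deficient cells at 4 h and 96.8 and 154 CPM at 0 h, against 295 and 307 CPM in WT at 4 h and 22.8 and 25.1 CPM in WT at 0 h. TMA64 rose by 1.21 ± 0.16 in grr1-deficient cells and TMA16 fell by 1.10 ± 0.25 (edgeR, Benjamini-Hochberg adjusted p = 0.000508 and 0.00831).

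The ER folding genes, set beside these cytosolic ones because tunicamycin acts in the ER, rose in both genotypes, 10 of 10 within grr1-deficient cells and 10 of 10 within WT, with median log2 changes of 2.05 and 1.82. Of all genes, 21.5% were called higher within grr1-deficient cells and 32.5% within WT. In grr1-deficient cells against WT, 0 were higher and 4 lower of the ER folding genes at 0 h, against 22.5% and 27.2% of all genes. At 4 h 1 was higher and 1 lower, against 17.2% and 14.1%. ERO1, the ER thiol oxidase, had 695 and 567 CPM in grr1-deficient cells at 4 h and 54.7 and 92.2 CPM at 0 h, against 928 and 798 CPM in WT at 4 h and 97.7 and 92.4 CPM in WT at 0 h. SIL1 and SCJ1, cofactors of the ER Hsp70 Kar2, rose by 2.93 ± 0.14 and by 1.59 ± 0.15 in grr1-deficient cells (edgeR, Benjamini-Hochberg adjusted p = 4.47e-05 and 0.000167).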

How the data were processed

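RNA-seq libraries of 8 samples in 4 groups of 2 were compared. Tools listed without roles in the submitters' processing notes are STAR 2.7.3a, Bowtie2 2.3.5, cutadapt 2.6 and DESeq2, with genome build R64. The deposited files hold raw read counts over exon, 5′ UTR, coding and 3′ UTR positions. Per the file headers, reads of 25 to 100 nt were counted at a single base, offset by 25 nt. RPKM values were computed by the authors' program, per the file headers. Countable length in bases is also deposited per region, and strand handling and multiply mapped reads are not given in the sources used here. The authors' deposited comparison tables give log2 fold changes with SE, p-values raw and adjusted, a mean normalized signal and a score (fold change over SE) per gene. A RefSeq symbol of R64 was found for 6008 of 6696 identifiers.

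Exon counts of all 8 libraries were fitted with edgeR 4.0.16 (R 4.3.3), TMM scaling, its expression filter (5855 genes) and robust quasi-likelihood, with 1 coefficient per group. Tests were two-sided, Benjamini-Hochberg adjusted over all genes, with a threshold of 0.05, and p-values measure the spread between these libraries. Fold changes carry a prior count of 0.125, and likeness used log2 CPM with a prior count of 2. The fit was checked on counts simulated with the same spread for every gene and library and no replicate difference. That check does not cover the replicate difference seen in grr1-deficient cells. DESeq2 1.42.0, other scalings and filters, coding reads, a replicate term and left-out libraries were alternatives. The 6 genes and the gene lists were chosen with earlier results of these data known. From each list the pair with the largest and the gene with the smallest log2 change within grr1-deficient cells were named, with all kin genes, MSN2, MSN4 and HSF1. No protein sequences were used here.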

Additional observations from a re-analysis of the deposited data

Results flagged for a closer look

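The TMA10 response to 4 h of tunicamycin went opposite ways in the genotypes: the log2 response in grr1-deficient cells minus that in WT was -6.65 ± 0.36 (SE). Both grr1-deficient 4 h libraries (520 and 501 CPM) lay below both grr1-deficient 0 h libraries (761 and 1181 CPM), whereas both WT 4 h libraries (511 and 636 CPM) lay above both WT 0 h libraries (12.3 and 9.36 CPM). The difference of the responses was not tested, because WT values may have led to the choice of the gene.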

How the results depend on the processing

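Within grr1-deficient cells, HSP42 and HSP104 kept their direction and their call in 19 of 19 alternatives, at log2 changes of 1.37 to 2.14 and 1.09 to 1.52. TMA10 kept them in 18 of 19, at -1.24 to -0.57, and in the fit of grr1-deficient libraries alone it had -0.94 with an edgeR adjusted p of 0.0608. That fit of 4 libraries called 1642 genes in all, against 2696 with all 8. With 1 library left out, HSP12 ranged from -0.69 to 2.25, HSP30 from -0.83 to 2.44, and, against WT, HSP26 at 0 h from -0.14 to 3.11 and HSP30 at 4 h from -1.25 to 1.30. HSP12 turned negative without replicate 1 at 0 h (-0.69), without replicate 2 at 4 h (-0.57) and without both libraries of replicate 1 (-0.21), and HSP30 did so without replicate 2 at 4 h (-0.83). Leaving out 1 library at a time called 3 to 5 of the 6 genes and 2267 to 2724 of all genes, and leaving out both libraries of replicate 2, chosen after the data were seen, called 6 of them and 3387 of all genes (1589 higher, 1798 lower). For grr1-deficient against WT at 0 h, HSP26 was -0.14 without replicate 2 at 0 h and -0.15 without both libraries of replicate 2. The median over the 6 genes was 1.32 to 3.21 with 1 library left out, 1.31 without both of replicate 2 and 3.23 without both of replicate 1. At 4 h, HSP30 was -1.25 without replicate 2 at 4 h and -1.25 without both of replicate 2, and the median was -1.18 to -0.98 with 1 library left out and -1.18 without both of replicate 2. The median difference of the responses was -4.65 to -2.77 with 1 library left out and -2.69 without both of replicate 2. For the WT change it was 5.13 to 5.27 with 1 library left out. Total-count scaling moved the median of all genes to 0.78 in WT (0.03 with TMM), to 0.34 at 0 h (-0.06) and to -0.28 at 4 h (-0.00), and the medians of the 6 genes to 5.97 in WT, -1.28 at 4 h and -4.85 for the difference of responses. The cause of these shifts was not tested.

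A replicate block shared by the genotypes called 3 of the 6 genes and 2743 of all genes within grr1-deficient cells. A replicate block per genotype called 4 and 3042, adding HSP30 at 0.85 ± 0.17 (edgeR adjusted p = 0.00282), and no other call of the 6 genes changed. Same-numbered libraries had deviations that correlated over 5831 nuclear genes at 0.46 between the grr1-deficient times and at 0.003 between the WT times, with 2 pairs each. No label ties a replicate number to a shared culture, and the main fit did not treat the samples as paired. A replicate difference shared by the grr1-deficient times therefore stays in the spread of that fit. HSP26 in WT and grr1-deficient replicate 1 at 0 h rests on 39 to 56 reads and HSP30 in WT at 0 h on 30 and 43, which limits their precision.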
